A study of Homo sapiens with 12 samples.

Results

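The genes described here are those of MHC class II antigen presentation: CIITA, CD74, HLA-DRA, HLA-DMA, HLA-DMB, HLA-DOA, HLA-DOB, HLA-DPA1, HLA-DPB1 and CTSS. They were taken by gene symbol from the probe annotation, which gave these 10 genes 25 probe sets, out of 19775 genes and 54613 probe sets tested on 12 arrays. A probe set is a group of short probes that together report on a transcript, and each gene is given by its single-gene probe set with the highest mean over the 12 arrays unless another is named. Both lines used, L428 and L1236, are established lines grown from classical Hodgkin lymphoma, whose tumour cells derive from B cells. Each line was measured untreated and after exposure to 1 µM 5-Aza-dC for 24 h, a wash and 72 h in drug-free medium, with 3 arrays in each of the 4 groups. 5-Aza-dC, also called decitabine, is a nucleoside analogue that inhibits DNA methyltransferases, so that dividing cells lose DNA methylation. The labels name no vehicle for the untreated cells and do not say that the 3 arrays of a group came from separate cultures, so the spread behind each p-value is that between arrays and may be technical.

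MHC class II molecules are pairs of an alpha and a beta chain that present peptides from the endosomal route to CD4+ T cells. In the B-cell lineage they are made constitutively, while many other cells make them only after interferon-gamma. Newly made chains are held by the invariant chain CD74, which the protease cathepsin S (CTSS) trims, and HLA-DM then exchanges the remaining fragment for peptide, a step that HLA-DO restrains. Transcription of these genes depends on CIITA, a coactivator without DNA binding of its own that docks on promoter-bound RFX, NF-Y and CREB proteins. Loss of class II or CIITA is known in a share of Hodgkin lymphomas.

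Because the genes share this control, the upstream bases of 6 of them are shown. RefSeq promoter windows of GRCh38.p14, each 300 bases long with 250 before the transcript start, were found for 7 of the 10 genes, 8 windows in all with a pair for HLA-DPA1. CIITA, HLA-DRA and CTSS had no entry. Each stretch is 90 bases, read 5′ to 3′ along the gene's strand, and capitals mark CCAAT or its reverse complement ATTGG, the core bound by NF-Y, together with AGNAAC and TGATGA, short sequences of the kind found in X-box elements, where found on the printed strand.
CD74, chr5:150412944-150413033, minus strand: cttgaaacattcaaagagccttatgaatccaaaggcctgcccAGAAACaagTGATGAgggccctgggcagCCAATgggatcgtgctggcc
HLA-DMA, chr6:32953127-32953216, minus strand: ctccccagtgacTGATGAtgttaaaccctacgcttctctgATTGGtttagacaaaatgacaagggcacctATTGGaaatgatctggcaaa
HLA-DMB, chr6:32941031-32941120, minus strand: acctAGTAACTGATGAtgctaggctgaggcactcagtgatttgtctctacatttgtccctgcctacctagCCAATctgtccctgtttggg
HLA-DOA, chr6:33009639-33009728, minus strand: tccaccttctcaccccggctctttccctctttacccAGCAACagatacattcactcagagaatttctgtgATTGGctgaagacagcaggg
HLA-DOB, chr6:32817057-32817146, minus strand: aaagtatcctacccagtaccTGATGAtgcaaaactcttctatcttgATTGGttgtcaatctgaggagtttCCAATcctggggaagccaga
HLA-DPB1, chr6:33075821-33075910, plus strand: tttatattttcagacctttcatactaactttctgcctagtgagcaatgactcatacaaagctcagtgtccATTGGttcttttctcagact

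On either strand, CCAAT occurred in 6 of the 8 windows and in 34.6% of 35116 RefSeq promoter windows of the same length. AGNAAC occurred in 5 of the 8 and in 42.4% of all windows, and TGATGA in 5 of the 8 and in 10.9% of all. CCAAT with at least 1 of the others occurred in 5 of the 8 and in 17.6% of all. In HLA-DMB the AGNAAC and TGATGA matches abut. These motifs were chosen after the windows had been read, so the shares describe the windows and test nothing. The windows were also poor in CpG, the dinucleotide whose methylation 5-Aza-dC reduces: 6 of the 8 held 5 or fewer, as did 33.7% of all windows, where the median was 14. The others were that of HLA-DOA, with 6, and 1 of those of HLA-DPA1, with 27.

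Labels and arrays were checked before the comparisons. The source name of untreated L1236 replicate 1 describes treated L428 cells, whereas its description gives untreated L1236, the group used here. Over all genes its values correlated best with untreated L1236 replicate 3. Treated replicate 1 of each line stood apart. Deviations from the group mean had an SD of 0.449 (L428) and 0.384 (L1236) on these arrays, while no other array exceeded 0.315. The closest array to treated L428 replicate 1 was untreated L428 replicate 1. Counts of called genes among the 10 and in each pathway list are therefore also given without the 4 arrays numbered 1, and without untreated L1236 replicate 1 where that matters. Among 8 markers of the tumour cell, TNFRSF8, which encodes CD30, lay between 9.47 and 10.80 on the log2 scale in every array. TRAF1 lay between 1.94 and 2.29 in every L1236 array. After treatment, with 12 arrays, 1 of the 8 was called higher in L428 and 3 in L1236, and none lower. Of all genes, 3.32% were called higher in L428 and 8.59% in L1236. Without the 4 arrays numbered 1, 3 were called higher and 1 lower in L428, and 4 higher in L1236. In that setting 14.4% of all genes were called higher and 14.6% lower in L428, and 16.7% higher in L1236. CCL22 had means of 3.61 in untreated and 10.07 in treated L1236. Between the untreated lines, 2 of the 8 were called higher and 4 lower in L1236, where 15.2% of all genes were called higher and 13.6% lower. In L428 the mean of the 8 was 10.66 to 11.21 untreated and 11.47 to 11.66 treated. In L1236 it was 9.36 to 9.62 and 10.63 to 11.47. Of 7 measured B-cell markers, MS4A1, at 2.43 to 2.59, and CD79A, at 3.42 to 4.24, were low throughout, but others were not. POU2AF1 lay between 11.56 and 13.55 in L1236 and between 2.35 and 2.43 in L428. SPIB lay between 8.29 and 9.57 in L428 and at 2.44, 3.08 and 2.45 in untreated L1236, and rose by 6.54 ± 0.31 in treated L1236 (adjusted p = 3.1e-06). CD79B rose there by 0.81 ± 0.22 (adjusted p = 0.0409), and neither was called in L428. The mean of the 7 in L1236 was 4.76 to 4.86 untreated and 5.74 to 5.88 treated, and the part of these genes in the class II values was not tested. Low throughout were the myeloid markers CD14, at 2.25 to 2.32, and LYZ, at 2.60 to 2.90.

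In untreated cells, 9 of the 10 genes differed between the lines, 8 of them lower in L1236 and HLA-DOB alone higher. Of all genes, 13.6% were called lower and 15.2% higher in that contrast, a call being an adjusted p under 0.05 in limma. The median difference of the 10 genes was -1.48, and that of all genes was -0.02. HLA-DMB was the gene without a call. The same 9 genes were called without the 4 arrays numbered 1, where 18% of all genes were called lower and 19.9% higher. In bulk RNA, fewer cells making a transcript and less transcript per cell cannot be told apart.

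**Figure D1:**
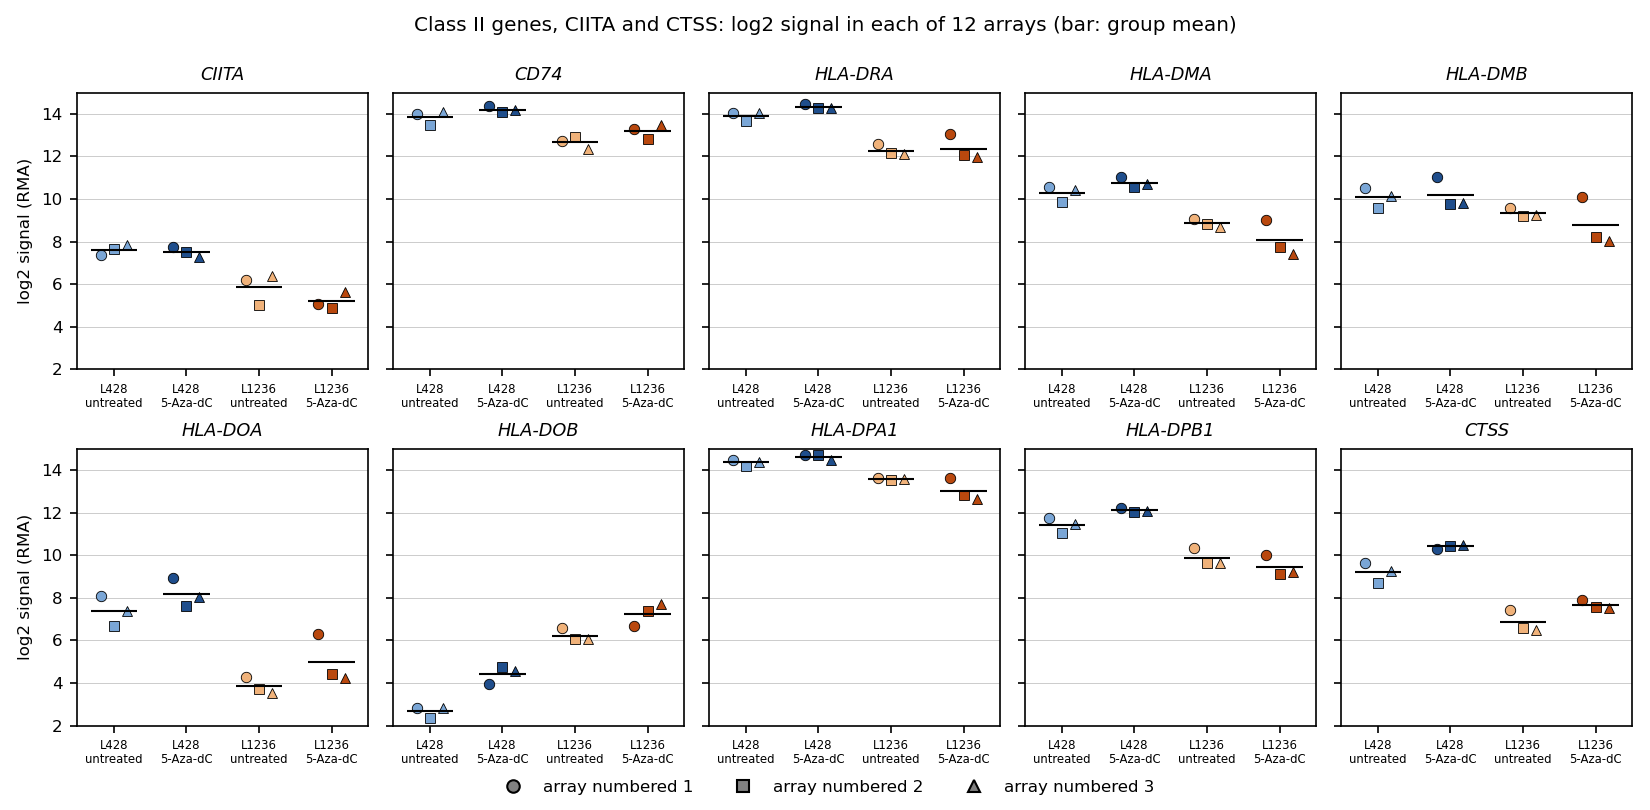
Log2 RMA signal (y axis) of the 10 genes in the 4 groups (x axis). Each point is 1 array, the symbol gives the replicate number, and the bar is the group mean of 3 arrays. L1236 arrays lie below L428 arrays in most panels, and HLA-DOB shows the opposite order.

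CIITA, the coactivator, read 7.38, 7.66 and 7.84 in untreated L428 and 6.19, 5.03 and 6.38 in untreated L1236. The groups did not overlap, and L1236 replicate 2 was more than a unit below its partners. The means were 7.63 ± 0.23 and 5.87 ± 0.73 (SD, n = 3), a difference of -1.76 ± 0.34 (SE, adjusted p = 0.0039), or 3.38-fold.

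The chains that form peptide-presenting molecules were bright in both lines. HLA-DRA, the alpha chain shared by all HLA-DR molecules, read 14.03, 13.65 and 14.04 in L428 and 12.56, 12.15 and 12.11 in L1236, so even the lowest L428 array was above the highest L1236 array. The difference was -1.63 ± 0.27 (adjusted p = 0.0015). HLA-DPB1, the beta chain of HLA-DP, read 11.77, 11.05 and 11.48 against 10.34, 9.63 and 9.65. Again the groups were separate, with a difference of -1.56 ± 0.29 (adjusted p = 0.0029). HLA-DPA1, its alpha partner, read 14.48, 14.20 and 14.40 against 13.64, 13.53 and 13.56. Its difference was the smallest called, -0.78 ± 0.22 (adjusted p = 0.0240). That call was lost when untreated L428 replicate 1 or 3, or any 1 of the 3 untreated L1236 arrays, was left out (adjusted p = 0.0538 to 0.0712). Its other probe sets, in limma over all probe sets, gave -1.33 ± 0.29 at 211991_s_at (adjusted p = 0.0103) and -0.98 ± 0.38 at 213537_at (adjusted p = 0.116).

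Among the genes that load these molecules, CD74 read 14.00, 13.47 and 14.09 in untreated L428 and 12.75, 12.92 and 12.35 in untreated L1236, with no overlap and a difference of -1.18 ± 0.23 (adjusted p = 0.0035). CTSS read 9.63, 8.71 and 9.27 against 7.44, 6.60 and 6.49. This was a wide gap, -2.36 ± 0.28 or 5.13-fold (adjusted p = 0.00020). HLA-DMA, the alpha chain of the exchange factor, read 10.54, 9.84 and 10.41 against 9.05, 8.84 and 8.69. It was lower in L1236 by -1.40 ± 0.38 (adjusted p = 0.0211), a call lost without untreated L428 replicate 1 or 3 or untreated L1236 replicate 2 or 3 (adjusted p = 0.0584 to 0.0697). HLA-DMB, its beta chain, read 10.54, 9.56 and 10.14 against 9.59, 9.22 and 9.27. Its groups overlapped by a narrow margin, and the difference of -0.72 ± 0.56 was not called (adjusted p = 0.469).

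The chains of HLA-DO, the inhibitor of HLA-DM, differed in opposite directions. HLA-DOA, the alpha chain, read 8.10, 6.68 and 7.37 in untreated L428 and 4.26, 3.72 and 3.53 in untreated L1236, a difference of -3.54 ± 0.60 or 11.7-fold (adjusted p = 0.0016). HLA-DOB, the beta chain, read 2.82, 2.36 and 2.83 in untreated L428 and 6.57, 6.05 and 6.06 in untreated L1236, a difference of 3.55 ± 0.30 or 11.7-fold (adjusted p = 2.2e-05). Neither chain's groups overlapped. At 206313_at, another HLA-DOA probe set, the difference was -1.30 ± 0.29 or 2.46-fold (adjusted p = 0.0107 in limma over all probe sets). The size of the HLA-DOA difference thus depends on the probe set. The low group of HLA-DOB lies at the lower end of the scale, and that of HLA-DOA close to it, so these folds depend on where the deposited processing placed that end.

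**Figure D2:**
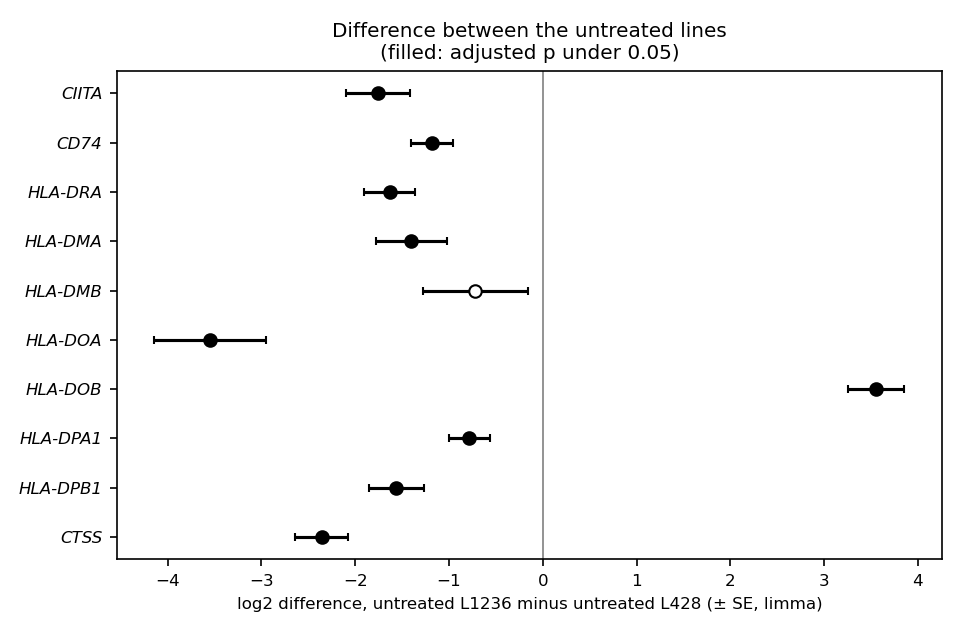
Log2 difference, untreated L1236 minus untreated L428 (x axis), for each gene, with its limma SE as the bar and filled points for an adjusted p under 0.05. HLA-DOA (-3.54) and HLA-DOB (3.55) lie at opposite ends, and HLA-DMB (-0.72) is the open point.

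Same-numbered arrays deviated alike from their group means between the untreated groups, between the L428 groups and between the treated groups. Arrays numbered 2 and 3 did so across numbers as well, so the values do not settle whether the numbers pair the arrays. The comparisons were repeated with the replicate number as a block. With the block over 12 arrays the same 9 genes were called between the untreated lines. With the block and only the 6 untreated arrays, 7 were called: CIITA (adjusted p = 0.0520) and CD74 (adjusted p = 0.0710) no longer passed.

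In L428, 5-Aza-dC was followed by higher HLA-DOB and CTSS, and no gene of the 10 was called lower. Of all genes, 3.32% were called higher and 1.34% lower. The difference was positive in 9 of the 10, with a median of 0.47 against -0.02 over all genes, but 7 of those 9 did not pass the test. Without the 4 arrays numbered 1, HLA-DOB, CTSS and HLA-DPB1 were called higher and none lower, where 14.4% of all genes were called higher and 14.6% lower.

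HLA-DOB read 3.95, 4.76 and 4.57 in treated L428, all above the highest untreated array at 2.83. The treated array nearest to the untreated ones was replicate 1. Its mean rose from 2.67 ± 0.27 to 4.43 ± 0.42 (SD, n = 3), a difference of 1.76 ± 0.30 (SE, adjusted p = 0.0144), or 3.38-fold from the lower end of the scale. CTSS read 10.31, 10.45 and 10.50 in treated L428, all above the highest untreated array at 9.63, a difference of 1.22 ± 0.28 (adjusted p = 0.0455).

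Both calls were near the threshold. That of HLA-DOB was lost without untreated replicate 2 (adjusted p = 0.0589), treated replicate 2 (0.0634) or treated replicate 3 (0.0659) of L428. CTSS was lost without untreated replicate 2 (adjusted p = 0.135) or 3 (0.109), or treated replicate 2 (0.152) or 3 (0.165), of L428. It was also lost without untreated replicate 2 or 3, or any 1 of the treated arrays, of L1236 (adjusted p = 0.0543 to 0.0759), which enter through the shared estimate of the spread. Fitted on the 6 L428 arrays alone, neither passed (adjusted p = 0.0816 and 0.140), nor with the replicate block on those arrays (0.160 and 0.191). With the block over 12 arrays, HLA-DOB (adjusted p = 0.0288), CTSS (0.0318) and HLA-DPB1 (0.0483) were called.

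The presenting chains of L428 lay slightly higher after treatment without passing the test. HLA-DPB1 read 12.23, 12.04 and 12.08, all above the untreated maximum of 11.77, with a difference of 0.69 ± 0.29 (adjusted p = 0.231). HLA-DRA read 14.46, 14.29 and 14.28, likewise above all untreated arrays, with 0.44 ± 0.27 (adjusted p = 0.457). HLA-DPA1 read 14.72, 14.70 and 14.49, above the untreated arrays by a narrow margin, with 0.27 ± 0.22 (adjusted p = 0.560).

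The loading genes overlapped more. CD74 read 14.38, 14.07 and 14.16, with replicate 2 below the untreated maximum of 14.09 (0.35 ± 0.23, adjusted p = 0.481). HLA-DMA read 11.05, 10.58 and 10.69, just clear of the untreated maximum of 10.54 (0.51 ± 0.38, adjusted p = 0.542). HLA-DMB read 11.02, 9.78 and 9.81, so replicate 1 alone was above the untreated range (0.13 ± 0.56, adjusted p = 0.920). HLA-DOA read 8.92, 7.62 and 8.06 against 8.10, 6.68 and 7.37, higher at each replicate number but with overlapping groups (0.81 ± 0.60, adjusted p = 0.535).

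CIITA was the gene with a negative difference in L428. It read 7.74, 7.49 and 7.29 after treatment, within or just under the untreated range of 7.38 to 7.84, with a difference of -0.12 ± 0.34 (adjusted p = 0.859).

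In L1236, no gene of the 10 was called in limma with all 12 arrays, where 8.59% of all genes were called higher and 6.35% lower. At an unadjusted p under 0.05 there were 4, namely CD74, HLA-DOB and CTSS with positive differences and HLA-DPA1 with a negative one. The differences were divided, 5 positive and 5 negative, with a median of -0.16 against -0.03 over all genes. Without the 4 arrays numbered 1, HLA-DOB and CTSS were called higher and HLA-DMA, HLA-DMB and HLA-DPA1 lower, where 16.7% of all genes were called higher and 17.7% lower.

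HLA-DOB read 6.68, 7.39 and 7.70 in treated L1236, all above the untreated maximum of 6.57. Replicate 1 lay close to that maximum. The difference was 1.03 ± 0.30 with all arrays (adjusted p = 0.0532), and 1.49 ± 0.19 without the arrays numbered 1 (adjusted p = 0.0028). It was also called without treated replicate 1 of L1236 (1.32, adjusted p = 0.0115) or of L428 (1.03, adjusted p = 0.0339). CTSS read 7.89, 7.56 and 7.54, above the untreated maximum of 7.44. Its difference was 0.82 ± 0.28 (adjusted p = 0.0881), and 1.00 ± 0.18 without the arrays numbered 1 (adjusted p = 0.0102). Without untreated L1236 replicate 1, the array with conflicting labels, CTSS was called at 1.12 ± 0.24 (adjusted p = 0.0223) and no other of the 10 genes was.

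The chains of HLA-DM and HLA-DP showed a gap between treated replicate 1 and its partners. HLA-DMA read 9.02, 7.73 and 7.41 in treated L1236 against 9.05, 8.84 and 8.69 untreated. Replicates 2 and 3 were below every untreated array and replicate 1 was among them. The difference was -0.80 ± 0.38 (adjusted p = 0.202) with all arrays and -1.19 ± 0.21 (adjusted p = 0.0100) without those numbered 1. HLA-DMB read 10.10, 8.23 and 8.04 against 9.59, 9.22 and 9.27, so replicate 1 was the highest of the 6 arrays and the others the lowest. Its difference was -0.57 ± 0.56 (adjusted p = 0.494) and -1.11 ± 0.19 (adjusted p = 0.0092).

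HLA-DPA1 read 13.61, 12.81 and 12.63 in treated L1236 against 13.64, 13.53 and 13.56 untreated, with the same split by replicate. The difference was -0.56 ± 0.22 (adjusted p = 0.126) and -0.83 ± 0.11 (adjusted p = 0.0034). With treated L1236 replicate 1 as the one array left out, HLA-DMA (-1.29, adjusted p = 0.0060) and HLA-DPA1 (-0.86, adjusted p = 0.00084) were called lower. HLA-DPB1 read 10.03, 9.12 and 9.22 against 10.34, 9.63 and 9.65, overlapping through replicate 1 alone (-0.42 ± 0.29, adjusted p = 0.358).

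HLA-DRA in L1236 read 13.07, 12.05 and 11.99 after treatment against 12.56, 12.15 and 12.11 before it, replicate 1 being highest and the others lowest of the 6. Its difference of 0.09 ± 0.27 (adjusted p = 0.823) turned to -0.11 without the arrays numbered 1 and to -0.25 without treated replicate 1. CD74 read 13.30, 12.82 and 13.49, with replicate 2 inside the untreated range that ended at 12.92 (0.53 ± 0.23, adjusted p = 0.162). HLA-DOA read 6.28, 4.42 and 4.24 against 4.26, 3.72 and 3.53, with replicate 3 just inside the untreated range and replicate 1 far above it (1.14 ± 0.60, adjusted p = 0.240).

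CIITA in L1236 read 5.06, 4.90 and 5.62 after treatment against 6.19, 5.03 and 6.38, so the groups overlapped through untreated replicate 2. The difference was -0.68 ± 0.34 (adjusted p = 0.228). Without that array it was -1.10 and was called (adjusted p = 0.0279). It was also called with quantile normalization (-1.08, adjusted p = 0.0420) and with median centring (-1.16, adjusted p = 0.0146), which moved the median of all genes down as well.

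**Figure D3:**
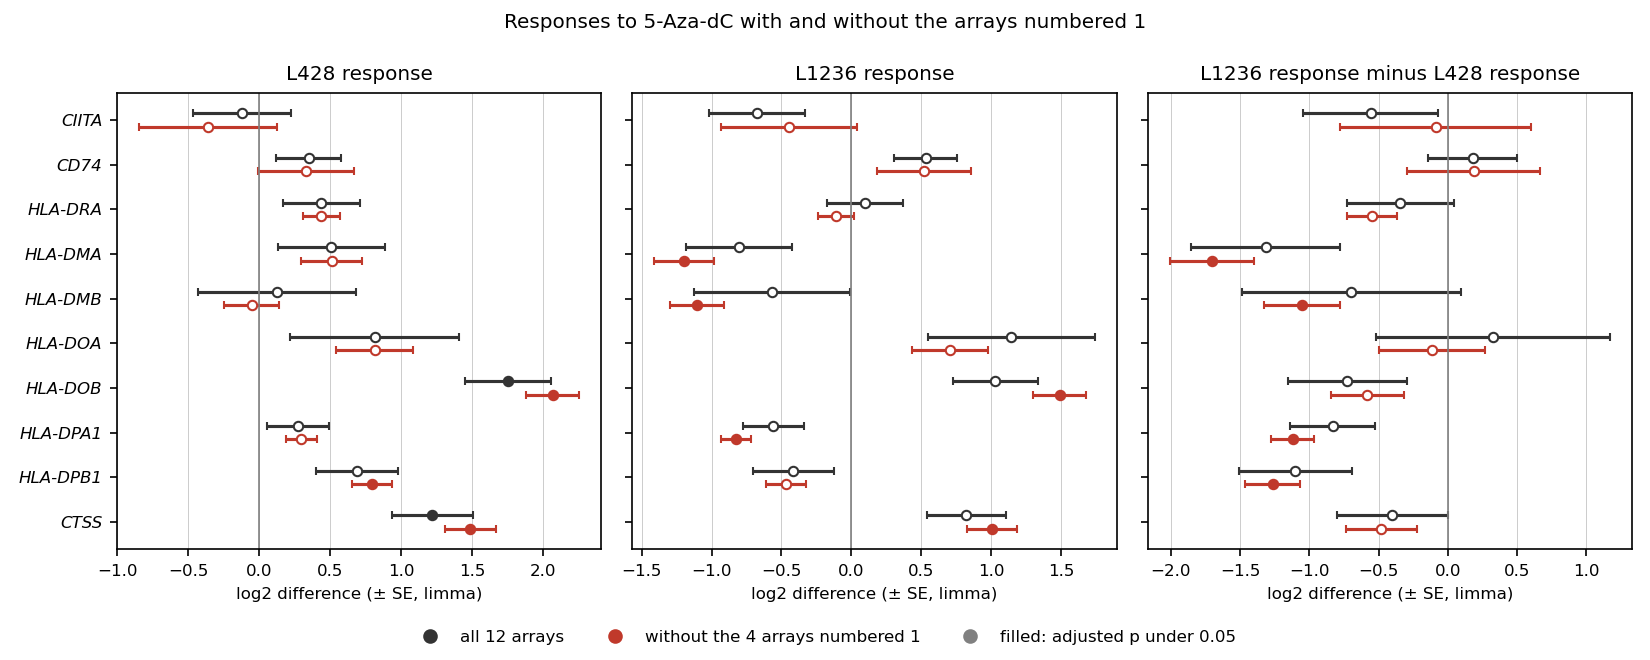
Log2 difference (x axis) for each gene in L428, in L1236 and between the responses, with the limma SE as the bar, from all 12 arrays (black) and without the 4 arrays numbered 1 (red). Filled points have an adjusted p under 0.05. In L1236, HLA-DMA, HLA-DMB and HLA-DPA1 are open black and filled red points left of 0, at -1.19, -1.11 and -0.83 in red.

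The responses of the lines were then compared through the L1236 response minus the L428 response. With 12 arrays none of the 10 genes was called, 3 had an unadjusted p under 0.05 in limma (HLA-DMA, HLA-DPA1 and HLA-DPB1), and 4.62% of all genes were called in either direction. The 3 differences were -1.31 ± 0.54 for HLA-DMA (adjusted p = 0.253), -0.83 ± 0.31 for HLA-DPA1 (adjusted p = 0.202) and -1.10 ± 0.41 for HLA-DPB1 (adjusted p = 0.202). With the replicate block over 12 arrays, HLA-DPB1 was called (adjusted p = 0.0409), though the numbers did not pair the L1236 arrays. Without the 4 arrays numbered 1, 4 genes were called, all lower in L1236, where 23.8% of all genes were called in either direction. They were HLA-DMA (-1.70, adjusted p = 0.0155), HLA-DMB (-1.05, adjusted p = 0.0489), HLA-DPA1 (-1.12, adjusted p = 0.0071) and HLA-DPB1 (-1.26, adjusted p = 0.0109). Without treated L1236 replicate 1 alone, HLA-DMA (-1.80, adjusted p = 0.0104), HLA-DPA1 (-1.13, adjusted p = 0.0018) and HLA-DPB1 (-1.39, adjusted p = 0.0403) were called. The responses of HLA-DOB and CTSS differed between the lines by -0.73 ± 0.43 (adjusted p = 0.474) and -0.40 ± 0.40 (adjusted p = 0.758), and neither was called without the arrays numbered 1.

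Ordered by group mean, both L428 groups lay above both L1236 groups for 9 of the 10 genes, and HLA-DOB had the reverse order. Treated L428 had the highest mean for 8 genes, and untreated L428 for CIITA. Within each line the treated and untreated neighbours did not differ beyond the test, apart from HLA-DOB and CTSS in L428. The contrast of the nearest groups across lines under different treatment was not run.

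The 25 probe sets were compared to see whether those of a gene agree. Of them, 8 read under 4 in all 12 arrays and carried little signal: 3 of HLA-DOA, 2 of CIITA and 1 each of CD74, HLA-DOB and HLA-DPB1. Between the untreated lines, 16 of the 25 were called, 15 lower and 1 higher in L1236, against 21.1% of all probe sets called in either direction. These included the dim HLA-DPB1 probe set 244485_at (-0.35, adjusted p = 0.0399). Of the 17 brighter probe sets, 16 were lower in untreated L1236 and 14 of these were called. Brighter probe sets are called more often in general. Of the 27307 kept when the dimmer ones by mean signal were removed, a cut other than that of 4, 6630 were called higher and 5973 lower. Some of the 17 also belong to the same gene.

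In L428, 2 of the 25 probe sets were called, both higher, where 3.02% of all were called. They were 205671_s_at of HLA-DOB and 232617_at of CTSS, which read 10.12, 10.44 and 10.38 after treatment against 9.00, 9.01 and 9.59 (1.11 ± 0.16, adjusted p = 0.0076). Among all probe sets, 202902_s_at, which stands for CTSS above, was just outside the threshold (adjusted p = 0.0606). Of the 17 brighter probe sets, 16 had a positive difference in L428. In L1236 none of the 25 was called, 7 had an unadjusted p under 0.05 in limma, and 9.02% of all probe sets were called.

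The probe sets of CTSS disagreed in L1236. Whereas 202902_s_at differed by 0.82 and 202901_x_at by 0.56 ± 0.24 (adjusted p = 0.190), 232617_at read 6.80, 7.03 and 6.79 after treatment against 6.81, 6.73 and 6.75, a difference of 0.12 ± 0.16 (adjusted p = 0.621). The HLA-DPA1 probe set 213537_at had the most negative difference of the 25 in L1236, reading 8.80, 9.10 and 9.06 untreated and 8.33, 7.18 and 7.19 treated, without a call (-1.43 ± 0.38, adjusted p = 0.0504). The second bright HLA-DOA probe set, 206313_at, read 4.11, 3.17 and 4.07 in untreated L428 and 5.22, 4.30 and 4.82 after treatment, with no overlap (1.00 ± 0.29, adjusted p = 0.120).

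**Figure D4:**
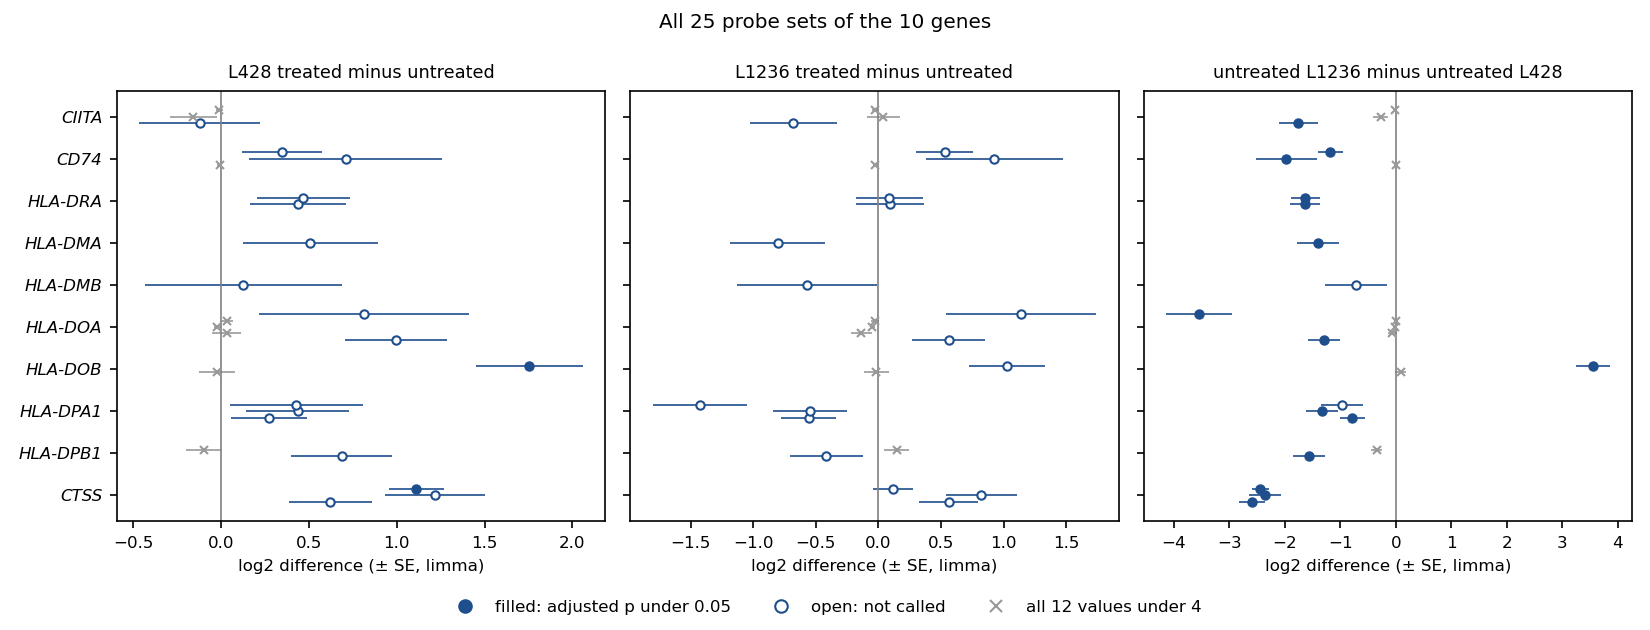
Log2 differences (x axis) of all 25 probe sets, grouped by gene, for L428, L1236 and the untreated lines, with the limma SE as the bar. Filled points have an adjusted p under 0.05, open points were not called, and grey crosses mark the 8 probe sets under 4 in all 12 arrays, 1 of which, 244485_at of HLA-DPB1 at -0.35 between the untreated lines, was called there.

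The rest of the pathway was read from 6 lists with 47 genes, of which 42 were measured by a single-gene probe set. Between the untreated lines, 10 were higher and 12 lower in L1236, with a median of 0.03. In L428, 5 were called higher and none lower, and in L1236 13 were called higher and 1 lower, beside the background shares of all genes given above. Without the 4 arrays numbered 1 these became 15 and 4 in L428, 19 and 9 in L1236, and 17 and 12 between the untreated lines. In that setting 14.4% of all genes were called higher and 14.6% lower in L428, and 16.7% and 17.7% in L1236. Between the untreated lines the shares were 19.9% and 18%. The counts of each list below stand beside these same shares.

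Of the other class II chains, 5 of 8 were measured and 4 were lower in untreated L1236, among them HLA-DRB1 (-1.78 ± 0.24, adjusted p = 0.00038) and HLA-DQB1 (-2.57 ± 0.34, adjusted p = 0.00040). The HLA-DQB1 value is that of 1 probe set, and the other probe sets of this gene did not all go the same way, as given under other observations. HLA-DQA1 gave -10.31 ± 0.29 (adjusted p = 1.5e-08) at its brightest probe set and 0.27 (adjusted p = 0.670) over the mean of its probe sets, which disagree. Genes of these chains are polymorphic and some are alike in sequence, and which of them a probe set reads is uncertain. None of the 5 was called in either response with 12 arrays. Without the arrays numbered 1, 1 was called higher and 1 lower in L1236, none in L428, and 4 lower between the untreated lines.

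Of the 7 factors that bind class II promoters, the RFX, NF-Y and CREB proteins, none was called in either response with 12 arrays. Without the arrays numbered 1, 1 was called higher and 3 lower in L428, 1 higher and 4 lower in L1236, and 4 higher and 1 lower in untreated L1236. Between the untreated lines, RFXANK was higher in L1236 (0.70 ± 0.15, adjusted p = 0.0072) and CREB1 lower (-0.65 ± 0.11, adjusted p = 0.0017).

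On the interferon-gamma route to CIITA, 8 of 9 genes were measured. In L428, IRF1, a transcription factor that acts at an interferon-responsive CIITA promoter, rose by 1.51 ± 0.31 (adjusted p = 0.0311) and the receptor kinase gene JAK2 by 1.05 ± 0.18 (adjusted p = 0.0152). In L1236, IRF1 rose by 2.38 ± 0.31 (adjusted p = 0.0016), IRF2 by 0.55 ± 0.12 (adjusted p = 0.0158) and the receptor chain IFNGR2 by 0.81 ± 0.19 (adjusted p = 0.0215). The other receptor chain, IFNGR1, made up the 4 called higher there. Between the untreated lines 3 were higher in L1236, led by JAK2 (2.10 ± 0.18, adjusted p = 2.6e-05) and including JAK1 (0.50 ± 0.09, adjusted p = 0.0018). IFNGR1 was lower (-2.48 ± 0.23, adjusted p = 3.8e-05). IFNG, the cytokine gene itself, read 2.26, 2.29 and 2.27 in untreated L428 and 2.26, 7.60 and 7.56 after treatment. Treated replicate 1 stayed at the untreated level and the others lay far above it, a difference that was not called (3.53 ± 1.20, adjusted p = 0.143). Without the arrays numbered 1, the list had 4 called higher and 1 lower in L428, 5 and 1 in L1236, and 5 and 1 between the untreated lines.

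Of the 5 lineage regulators of CIITA, PAX5, the B-cell commitment factor, was higher in untreated L1236 by 6.46 ± 0.28 (adjusted p = 2.6e-07). PRDM1, a repressor of CIITA in plasma cells, was lower by -3.75 ± 0.10 (adjusted p = 8.7e-09), and IRF8 by -1.34 ± 0.33 (adjusted p = 0.0134). In L428, PAX5 rose by 1.22 ± 0.28 (adjusted p = 0.0445). In L1236, PRDM1 rose by 1.65 ± 0.10 (adjusted p = 1.2e-05) and IRF8 by 1.64 ± 0.33 (adjusted p = 0.0123). Without the arrays numbered 1, 2 were called higher in L428 and 4 in L1236, none lower, and between the untreated lines 2 were higher and 2 lower.

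Of 9 measured genes of lysosomal processing, L428 showed 2 rises, the protease genes LGMN (2.25 ± 0.52, adjusted p = 0.0434) and CTSH (1.39 ± 0.32, adjusted p = 0.0438). L1236 showed 3 rises, in CTSL (3.17 ± 0.22, adjusted p = 3.0e-05), CTSV (1.71 ± 0.25, adjusted p = 0.0024) and SPPL2A, a protease that cleaves the last CD74 stub (0.76 ± 0.16, adjusted p = 0.0133). CTSL had means of 2.77 in untreated and 5.94 in treated L1236, so its rise starts from the lower end of the scale. CTSC fell in L1236 (-0.48 ± 0.10, adjusted p = 0.0132). Between the untreated lines 2 were higher in L1236 and 3 lower, led by CTSC (1.10 ± 0.10, adjusted p = 3.1e-05), SPPL2A (-1.01 ± 0.16, adjusted p = 0.00097) and CTSB (1.39 ± 0.23, adjusted p = 0.0016). Without the arrays numbered 1, 4 were called higher in L428 and none lower, 4 higher and 2 lower in L1236, and 3 higher and 3 lower between the untreated lines.

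Of 8 genes of class II turnover and surface partners, none was called in L428 and 4 rose in L1236 with 12 arrays. Without the arrays numbered 1, 4 were called higher in L428, and 4 higher and 1 lower in L1236, with 3 higher and 1 lower between the untreated lines. Those called in L1236 with 12 arrays included CD83, which stabilises class II at the surface (3.88 ± 0.53, adjusted p = 0.0019), and the costimulatory genes CD86 (0.95 ± 0.22, adjusted p = 0.0208) and CD40 (1.35 ± 0.31, adjusted p = 0.0208). CD83 was lower in untreated L1236 (-4.61 ± 0.53, adjusted p = 0.00015), while MARCHF8, a ligase that ubiquitinates class II and CD86, was higher (2.35 ± 0.29, adjusted p = 0.00022), as was CD40 (2.32 ± 0.31, adjusted p = 0.00040).

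The rises in L428 were near the threshold. Over 24 alternative settings, single arrays left out included, the call was lost in 7 for JAK2, 11 for IRF1, 13 for CTSH, 14 for LGMN and 17 for PAX5. In L1236 it was lost in none of 24 for CTSV and PRDM1 and none of 23 for CTSL, which the filter on dim genes removed. It was lost there in 1 for IRF1 and CD83, 2 for CTSC and 3 for IRF8. Losses were more frequent for CD40 and IRF2 (6 each), CD86 and IFNGR2 (7 each), SPPL2A (8) and IFNGR1 (14).

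Markers of myeloid and dendritic cells, which also make class II, moved with treatment in part. Their mean level over 12 measured genes was 3.02 to 3.12 in untreated and 3.52 to 3.66 in treated L428, and 3.12 to 3.15 and 3.82 to 4.18 in L1236. In all 12 arrays 8 of the 12 stayed under 4. Of the 12 genes, 2 were called higher in L428 and 3 in L1236, where 3.32% and 8.59% of all genes were called higher. Without the arrays numbered 1 there were 3 in each line, where the shares were 14.4% and 16.7%. TYROBP was called higher in both lines, by 4.08 in L428 and 6.04 in L1236, as was AIF1, by 1.39 and 2.17. Of 6 T-cell markers, 1 was called higher in L428 and 2 in L1236 in either setting, beside the same shares. In L1236 the mean level of the 6 was 2.32 to 2.46 untreated and 3.40 to 3.53 treated. The part of these genes in the class II values was not tested.

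The genes outside the 10 whose levels followed CIITA most closely over the 12 arrays were RPL31, FAM86B2-DT, TMX1, PATJ and MBIP, with Pearson's r of 0.971, 0.954, 0.952, 0.950 and 0.945. The arrays fall into 2 lines and share these groups, so the values describe likeness and carry no test. PATJ, for example, had means of 10.59, 9.59, 5.43 and 4.28 in untreated L428, treated L428, untreated L1236 and treated L1236, the order shown by CIITA.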

How the data were processed

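Total RNA of 12 samples was hybridised to arrays. The authors deposited a log2 signal for each probe set and array, computed by RMA (robust multichip averaging) according to the labels and, per the submitters' processing notes, with no version given in the sources used here. Identifiers in the table belong to a 3′ expression array, although the labels name a whole-transcript design, and the identifiers were followed. Nothing says how the arrays were scaled beyond RMA. Array medians were 3.01 to 3.09, and the number of arrays limits the precision.

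Of 54675 probe sets, 62 were controls, 41097 had 1 gene symbol, 1801 several and 11777 none, and 41043 were matched to RefSeq. Each of 19775 genes was given by its single-gene probe set with the highest mean. All 12 arrays entered 1 linear model of 4 group means in limma 3.58.1 (R 4.3.3), two-sided, with Benjamini-Hochberg adjustment over all genes, and again over 54613 probe sets. The same steps were tested on simulated data. Genes named were all 10 genes with all probe sets, from each pathway list up to 3 called genes with the smallest adjusted p in each response and between the untreated lines, and the 5 genes most correlated with CIITA. IFNG, IFNGR1 and SPPL2A (the last 2 in L1236) and the markers are named beside that rule, with their values known. The genes and lists were chosen with earlier results of these data known.

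Replicate numbers come from the titles. Deviations from group means of same-numbered arrays correlated at 0.164 to 0.250 between the L428 groups and 0.107 to 0.360 between the untreated groups, over 0.1 for every pair, and at -0.018 to 0.063 between the L1236 groups. Some arrays of different number correlated too. Untreated L428 replicate 2 did so with treated L428 replicate 3 at 0.173, and untreated L428 replicate 3 with untreated L1236 replicate 2 at 0.275. Between the treated groups, same-numbered arrays correlated at 0.400, 0.313 and 0.243. Arrays numbered 2 and 3 did so across numbers there as well, at 0.303 and 0.299. Pairing by number is therefore not established for the L428 groups, the untreated groups or the treated groups, and the block is given as an alternative. Alternatives covered the replicate block, the arrays fitted, the probe set rule, dim genes, scaling, the variance model, array weights and arrays left out. The block with only the arrays of a contrast was chosen after seeing the data.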

Additional observations from a re-analysis of the deposited data

Results flagged for a closer look

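By the limma test of the difference itself, the responses of the lines differed for 5 of the 42 measured genes of the wider pathway. Of all genes, 4.62% were called in either direction. Without the 4 arrays numbered 1, 10 of the 42 were called higher and 9 lower, where 23.8% of all genes were called. The value below, from all 12 arrays, is the response in L1236 minus that in L428. It was 3.55 ± 0.75 for CD83 (adjusted p = 0.0326), from responses of 0.32 in L428 and 3.88 in L1236. It was 2.65 ± 0.31 for CTSL (adjusted p = 0.0021), from 0.52 and 3.17, and 1.64 ± 0.14 for PRDM1 (adjusted p = 0.00028), from 0.01 and 1.65. JAK2 gave -1.49 ± 0.26 (adjusted p = 0.0159), from 1.05 and -0.45. JAK1 gave 0.51 ± 0.12 (adjusted p = 0.0486), from -0.31 and 0.20, and that call was lost under 16 of 23 alternatives. The call was lost under 10 of 23 for CD83, 1 of 23 for PRDM1, and none run for CTSL and JAK2. Among the marker genes named, SPIB differed by 5.98 ± 0.44 (adjusted p = 0.00014), from 0.56 and 6.54, and TYROBP by 1.97 ± 0.31 (adjusted p = 0.0097), from 4.08 and 6.04.

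The HLA-DPA1 probe set 213537_at was noted because all 3 treated arrays lay above the untreated mean in L428 and below it in L1236. The L428 groups overlapped, at 10.34, 10.40 and 10.44 treated against 9.28, 9.95 and 10.66 untreated (0.43 ± 0.38, adjusted p = 0.566 in limma). The difference between the responses was -1.85 ± 0.53, which did not pass the test over all probe sets (adjusted p = 0.136).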

How the results depend on the processing

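The 10 genes in 4 contrasts kept direction and side of the threshold in 864 of 950 values from alternative settings, with 28 calls lost, 42 gained and 16 directions turned. Between the untreated lines the 9 calls ranged from 7 to 10 over all settings and from 7 to 9 when 1 array was left out. For the L428 response, the 2 calls became 0 with only the L428 arrays, 0 with the replicate block on those arrays and 1 over every probe set, and ranged from 0 to 2 with 1 array left out. They became 3, with HLA-DPB1 gained, under the block over 12 arrays (adjusted p = 0.0483), array weights (0.0289) and without the arrays numbered 1 (0.0121). For L1236, the count of 0 became 1 with the replicate block (HLA-DOA, adjusted p = 0.0401), 1 with the mean of a gene's probe sets, 2 with dim genes removed, 4 with median centring, 1 with quantile normalization, 7 with array weights, 5 without the 4 arrays numbered 1, and 0 to 3 with 1 array left out. The L1236 numbers did not pair the arrays. For the difference between responses, 0 became 1 with the replicate block, 3 with array weights, 4 without the arrays numbered 1, and 0 to 3 with 1 array left out. Beyond these and the gain of HLA-DPB1 in L428, the block over 12 arrays changed no call of the 10 genes. The estimate of the array weights did not converge. Of all 19775 genes, array weights called 3641 higher and 6085 lower in L1236, and 3119 and 3442 in L428. Between responses they called 2774 and 2944. Of all 54613 probe sets they called 7905 higher and 21623 lower in L1236, so the gains of the 10 genes under this setting stand beside a large share of all genes. Over the members' probe sets, the L428 count of 2 became 0 with only those arrays, 0 with the block on them and 5 without the arrays numbered 1 (1 to 3 with 1 left out). The L1236 count of 0 became 2 with dim probe sets removed, 3 with median centring, 2 with quantile normalization, 1 with a trended robust variance, 13 with array weights and 7 without the arrays numbered 1 (0 to 5). That between responses became 1 with dim ones removed, 3 with array weights and 5 without the arrays numbered 1 (0 to 4), and the untreated count of 16 ranged from 12 to 16.

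Median centring moved the median change of all genes to -0.45 in L428, -0.51 in L1236 and -0.25 between the untreated lines. Genes called higher and lower were then 858 and 11984, 1205 and 12893, and 2393 and 3971, against 656 and 264, 1699 and 1256, and 3013 and 2686 without it. Quantile normalization gave 768 and 1824, 1875 and 4671, and 2777 and 3094. Under median centring CD74 (-0.083), HLA-DMB (-0.31) and HLA-DPA1 (-0.16) turned negative in L428 and HLA-DRA (-0.39) in L1236, none called. HLA-DRA in L1236 also turned with array weights (-0.10), without the arrays numbered 1 (-0.11), and ranged from -0.25 (without treated replicate 1) to 0.28 with 1 array left out. HLA-DMB in L428 turned with array weights (-0.27), without untreated replicate 2 (-0.13) or treated replicate 1 (-0.28), and without the arrays numbered 1 (-0.054), and ranged from -0.28 to 0.36 with 1 array left out. The difference between responses of HLA-DOA turned with the mean of its probe sets (-0.073), quantile normalization (-0.048), without untreated L428 replicate 1 (-0.03), treated L1236 replicate 1 (-0.32) and the arrays numbered 1 (-0.11), and ranged from -0.32 to 0.70 with 1 array left out. HLA-DQA1 between the untreated lines turned to 0.27 with the mean of its probe sets. The cause was not tested. Values near 2 to 3 lie at the low end of the signal, which limits folds from there.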

Other observations

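Probe sets of the HLA-DQ genes, which encode another class II molecule, read the lines in opposite ways. For HLA-DQA1, 203290_at gave 13.36 ± 0.24 (SD, n = 3) in untreated L428 and 3.05 ± 0.67 in untreated L1236, whereas 213831_at gave 2.63 ± 0.16 and 8.67 ± 0.47. The third, 236203_at, followed the latter, with 2.83 ± 0.04 and 7.92 ± 0.82. For HLA-DQB1, 209823_x_at gave 12.34 ± 0.27 and 4.09 ± 0.26, and 209480_at gave 3.38 ± 0.03 and 9.73 ± 0.31. The annotation assigns each of these probe sets to 1 gene, and 212671_s_at, assigned to HLA-DQA1 and HLA-DQA2 together, was bright in both lines at 13.02 ± 0.29 and 10.74 ± 0.59. These probe sets were chosen after their values were seen.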
